A study of Homo sapiens with 4 samples.

Results

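The carbonic anhydrases described here are 10 genes, CA1, CA2, CA3, CA4, CA8, CA9, CA11, CA12, CA13 and CA14, read on 4 single color microarrays of HCT116 derived clones. HCT116 is an established human colorectal carcinoma cell line. The members are the probes that the array files name for these genes, 15 probes of the 50238 that are not controls. The family was chosen from earlier results of the same arrays because CA9 was higher in the knockdown clone, so its values between the clones are a description and carry no test. The study compared a vector control clone (vec) with a clone in which plakophilin 3 (PKP3), a protein of the desmosomal plaque, was lowered by a stably expressed short hairpin RNA (shpkp3-2). Each clone was hybridized on 2 arrays, and the first arrays of the clones hold RNA from 1 collection and the second arrays RNA from another. Both clones are HCT116 cells that carry a plasmid and were kept under drug selection, which the sample labels give as 5 μg/ml of puromycin and the methods of the study as blasticidin. Each group is therefore 1 clone, and an effect of PKP3 loss and a difference between individual clones cannot be told apart. The 4 arrays shared 1 slide, on which each clone took a block of adjacent positions, so that clone and place on the slide also cannot be told apart.

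Carbonic anhydrases are zinc enzymes that turn carbon dioxide and water into bicarbonate and a proton, and the reverse, and with bicarbonate and proton transporters they set the pH inside and outside the cell. CA9, CA12 and CA14 span the plasma membrane with the catalytic domain outside the cell, and CA4 is held on the outer surface by a lipid anchor. CA1, CA2, CA3 and CA13 work in the cytosol, while CA8 and CA11 are related proteins that lack the catalytic activity. CA9 is a well known target of the hypoxia inducible factor HIF1, which binds a short core motif in the promoters of its targets, and CA9 is used as a tissue marker of low oxygen in tumors.

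The probe that reads CA9 and the probe that reads CA11, a family member whose clones overlapped, are shown because every value below is the signal of such an oligonucleotide. They are printed in lower case, as the files hold them, 5′ to 3′.
CA9 probe: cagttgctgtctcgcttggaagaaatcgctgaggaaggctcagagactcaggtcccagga
CA11 probe: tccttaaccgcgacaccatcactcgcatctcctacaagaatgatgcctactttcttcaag
Each of the 15 probes is 60 bases long. Of the 105 pairs of these probes, 0 shared a run of 12 bases, so that no stretch of that length is common to 2 of them. The CA9 probe held 55.0% of G and C, at the 95th percentile of all probes that are not controls (55.0%, with a median of 41.7%), and the other 14 lay between 35.0% and 51.7%.

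The promoters of CA9, CA12 and CA14, the 3 members that span the membrane, are shown because CA9 was set apart from the other two on these arrays. The 250 bases before the start of each gene are from RefSeq on GRCh38.p14, and the core motif of hypoxia response elements, ACGTG or GCGTG on either strand, is in capitals. Of the 10 members, 3 were matched to a promoter.
CA9, chr9:35673678-35673927, plus strand: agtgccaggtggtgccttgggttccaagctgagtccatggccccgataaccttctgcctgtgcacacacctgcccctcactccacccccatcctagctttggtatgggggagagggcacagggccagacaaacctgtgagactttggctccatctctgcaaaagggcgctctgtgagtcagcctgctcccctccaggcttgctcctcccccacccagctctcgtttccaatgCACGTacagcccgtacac
CA12, chr15:63381847-63382096, minus strand: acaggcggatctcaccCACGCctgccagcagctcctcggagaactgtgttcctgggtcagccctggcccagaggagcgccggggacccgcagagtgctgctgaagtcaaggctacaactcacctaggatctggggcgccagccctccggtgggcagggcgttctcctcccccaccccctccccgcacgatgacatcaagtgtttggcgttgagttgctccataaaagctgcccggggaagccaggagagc
CA14, chr1:150257524-150257773, plus strand: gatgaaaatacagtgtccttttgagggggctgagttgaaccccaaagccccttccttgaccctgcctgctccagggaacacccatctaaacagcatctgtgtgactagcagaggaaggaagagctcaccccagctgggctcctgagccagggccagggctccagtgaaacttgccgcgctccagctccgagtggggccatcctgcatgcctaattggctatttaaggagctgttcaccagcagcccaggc
The CA9 window held the motif once, as ACGTG read on the strand opposite to the printed one, at position -18 from the start. The CA12 window held it once, as GCGTG, also on the strand opposite to the printed one, at position -234, and the CA14 window did not hold these letters. Either motif was present in 43.2% of 35097 promoter windows of this length and ACGTG in 18.5%, so that a match is common. Among 45 windows of the hypoxia genes listed below, either motif was present in 80.0% and ACGTG in 57.8%.

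Over the 51538 spots that are not controls, between 60.5% and 63.5% on an array were detected, meaning that the scanner software flagged them as well above background, 0 were saturated, and the number of arrays limits the precision. Signals are background subtracted intensities. A normalized log2 intensity is the log2 of the signal minus the 75th percentile of its array, so that 0 stands for that percentile, and levels of different probes are not compared, as each probe binds with its own strength. PKP3, the target of the hairpin, had signals of 20850.4 and 22839.8 in vec against 3414.4 and 3078.4 in shpkp3-2. It fell to 17.2% of vec (log2 difference -2.54, standard error (SE) 0.23, n = 2 arrays a clone, adjusted p = 0.0188 by limma over 30512 probes). PKP3 was past the threshold in 11 of 13 alternatives, and not with no filter on detection or with the weaker detection flag (highest adjusted p = 0.145). All 6 epithelial markers (EPCAM, CDH1, KRT8, KRT18, KRT19 and KRT20) were detected on all 4 arrays. Of the markers of other cell types, read from the brightest probe, 2 of 3 for leukocytes (CD3E and CD14), 1 of 4 for fibroblasts (COL1A1) and 1 of 3 for endothelium (VWF) were also detected on all 4 arrays, at signals of up to 29.8, 178.2 and 90.8, while PTPRC, COL1A2, DCN, PDGFRB, PECAM1 and CDH5 were on none.

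CA9 had signals of 44.8 and 24.5 in vec against 244.6 and 446.4 in shpkp3-2. Both shpkp3-2 arrays were above both vec arrays, and the probe was detected on all 4. The normalized log2 intensity was -3.72 ± 0.34 (SD, n = 2) in vec against -0.19 ± 0.63 (SD, n = 2) in shpkp3-2, a log2 difference of 3.53 with an SE of 0.34, or 11.5-fold. The first RNA collection gave a difference of 2.85 and the second 4.21, so that the direction was shared by both and the size was not. Among the 28883 probes detected on all 4 arrays, 7 had a difference at least as large, CA9 included. As CA9 was chosen for its rise in this contrast, the rank is a description. In bulk RNA such as this, more cells that express CA9 and more CA9 RNA per cell cannot be told apart.

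The size of this difference depended on how the background was treated. Before any correction, the CA9 spot had a mean intensity of 74.7 on vec 1 and 52.2 on vec 2 over a local background of 25 and 24, and of 287 on shpkp3-2 1 and 491 on shpkp3-2 2 over 24 on each. With normexp background correction of these intensities and an offset of 50, which raises dim spots, the log2 difference was 2.27 (4.82-fold). With quantile normalization, median centring or a floor of 5 it lay between 3.46 and 3.53. The lowest signals that counted as detected were between 8.41 and 9.74 on the arrays, below the CA9 signals in vec.

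CA12, the other widely studied membrane enzyme of tumors, did not follow CA9. Its brightest probe had signals of 633.3 and 446.7 in vec against 355.1 and 425.8 in shpkp3-2, which are normalized log2 intensities of 0.34 and 0.23 against -0.09 and 0.19. The difference was -0.24 (SE 0.19), and the clones did not overlap but came within 0.04 of each other in the second RNA collection. The second CA12 probe, dim at signals of 16.8 to 29.2, gave -0.16 (SE 0.20) with clones that overlapped. The other 2 CA12 probes, designed on another transcript record, were detected on 0 of 4 arrays, so that CA12 forms specific to that record were not measured.

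CA14, which is best known from the kidney, brain and retina, had signals of 126.8 and 75.1 in vec against 144.6 and 117.2 in shpkp3-2. The raw signal of shpkp3-2 2 was below that of vec 1, and the clones separated only once each array was centred, at -1.98 and -2.34 in vec against -1.39 and -1.67 in shpkp3-2. The difference was 0.63 (SE 0.22), or 1.54-fold, and it was alike in both RNA collections, 0.59 and 0.67. It stayed between 0.44 and 0.81 over 12 alternatives. CA4, the lipid anchored enzyme, was detected on 0 of 4 arrays, with signals of 2.30 to 5.85, so that no level of it was measured in either clone.

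**Figure D1:**
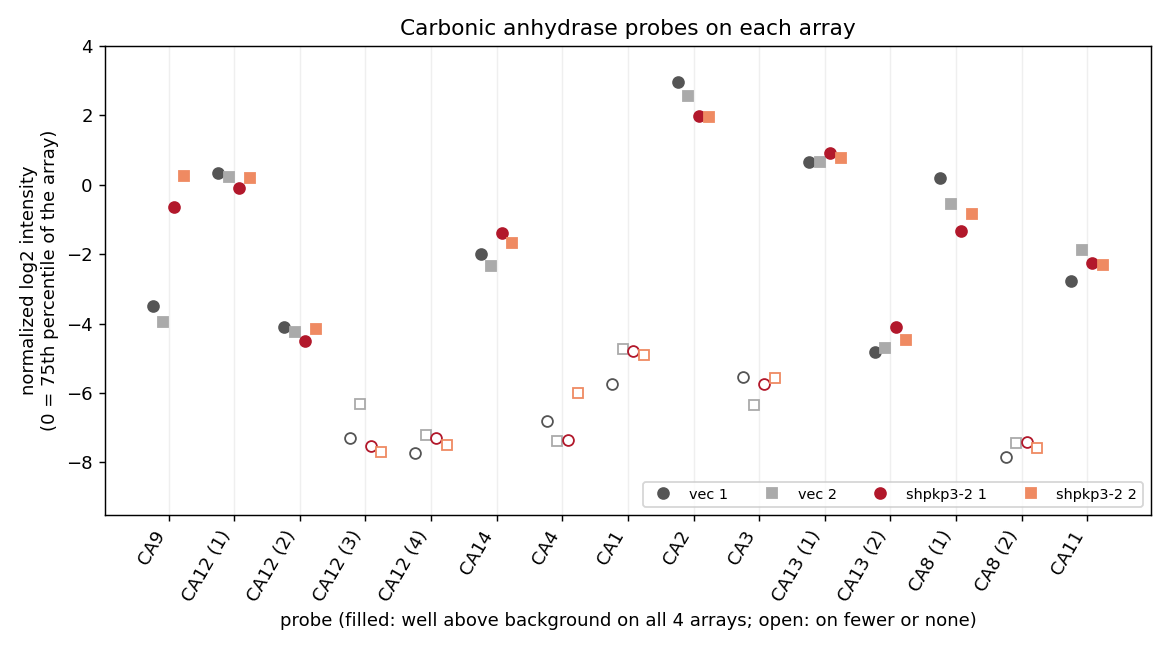
The 15 carbonic anhydrase probes (x axis, numbered from the brightest where a gene has several) with the normalized log2 intensity on each of the 4 arrays (y axis), and with filled symbols where a probe was detected on all 4 arrays. CA9 lies between -3.96 and -3.48 on the vec arrays and between -0.63 and 0.25 on the shpkp3-2 arrays, while the clone means of the other filled probes differ by -0.91 to 0.63, and heights of different probes are not comparable.

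Of the cytosolic enzymes, CA2, a highly active form, had signals of 3867.8 and 2243.8 in vec against 1497.0 and 1436.2 in shpkp3-2, so that both shpkp3-2 arrays were below both vec arrays. The normalized log2 intensity was 2.76 ± 0.28 (SD, n = 2) in vec against 1.96 ± 0.03 in shpkp3-2, a difference of -0.79 (SE 0.21), and shpkp3-2 was at 57.6% of vec. The 2 RNA collections gave -0.97 and -0.62, and the sign was the same in 12 of 12 alternatives.

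CA13 is a neighbour of CA1, CA3 and CA2 in the carbonic anhydrase cluster of chromosome 8, and it was read by 2 detected probes. The brighter gave signals of 791.2 and 603.0 in vec against 716.9 and 643.6 in shpkp3-2, with a difference of 0.19 (SE 0.17), and the dimmer, at signals of 14.7 to 22.3, gave 0.48 (SE 0.20). The clones did not overlap for either after normalization, with differences of at most 0.25 and 0.72 within an RNA collection. CA1, known from red cells and from the lining of the colon, was near background, with signals of 9.33 and 14.5 in vec against 13.7 and 12.4 in shpkp3-2. It was detected on 1 of 2 vec arrays and 2 of 2 shpkp3-2 arrays. Its difference of 0.38 (SE 0.34) was 0.95 in the first RNA collection and -0.19 in the second, and it was -0.13 without vec 1. CA3, the form of muscle and fat, was detected on 0 of 4 arrays, at signals of 4.66 to 10.8.

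The cluster on chromosome 8 thus held the members in the order CA13, CA1, CA3 and CA2, of which CA13 had positive differences, CA2 a negative one, and CA1 and CA3 were at or near background. CA2 and CA13, both measured on all 4 arrays, had log2 differences of opposite sign, -0.79 and 0.19 from their brightest probes. CA8 lies elsewhere on the same chromosome.

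Of the 2 members without catalytic activity, CA8, which binds the inositol trisphosphate receptor in neurons, had signals of 570.8 and 262.6 in vec against 152.1 and 207.6 in shpkp3-2. Both shpkp3-2 arrays were below both vec arrays, and the difference was -0.91 (SE 0.30), with shpkp3-2 at 53.1% of vec. The vec arrays stood 0.73 apart on the log2 scale, and the difference was -1.51 in the first RNA collection and -0.31 in the second, so that the sign was shared by both collections and the size was not. It was -0.55 without vec 1 and -1.28 without vec 2. A second CA8 probe, on another transcript record, was detected on 0 of 4 arrays. CA11, found mainly in the brain, had signals of 72.8 and 103.5 in vec against 80.1 and 75 in shpkp3-2. Both shpkp3-2 arrays lay between the vec arrays, at normalized log2 intensities of -2.24 and -2.32 against -2.78 and -1.88. The difference was 0.05 (SE 0.31).

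**Figure D2:**
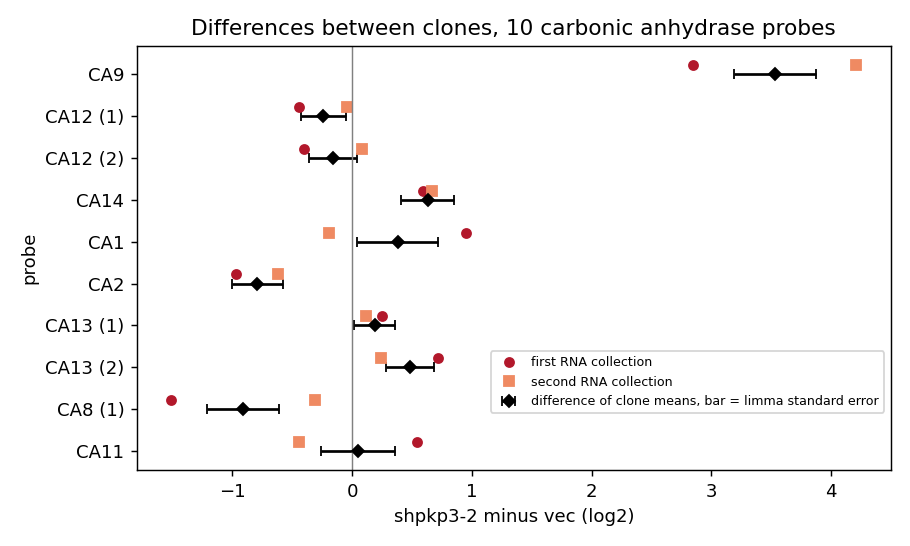
Log2 differences between the clones (x axis, shpkp3-2 minus vec) for the 10 carbonic anhydrase probes detected on both arrays of 1 clone or of both clones (y axis), with the difference of the clone means and its limma SE (diamonds and bars) and the difference within each RNA collection (circles and squares). CA9 lies at 3.53, the other 9 probes lie between -0.91 and 0.63, and for CA1, CA11 and the second CA12 probe the 2 collections lie on opposite sides of 0.

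Of the 15 member probes, 9 probes of 7 genes were detected on all 4 arrays, and 5 probes on none. The remaining probe is that of CA1, which passed the filter on low values through shpkp3-2. The 10 probes of 8 genes that could be fitted had a median log2 difference of 0.12, beside 0.05 over all 30512 probes. By limma with Benjamini-Hochberg adjustment over all probes, 1 of the 10 was called higher (CA9), where 0.246% of all probes were, and 0 were called lower, where 0.144% were. A 2-fold rule asks for a log2 difference of at least 1 from the vec mean on each shpkp3-2 array. It also asks for detection on both shpkp3-2 arrays for a higher call and on both vec arrays for a lower call. By this rule 1 was higher (CA9), where 1.12% of all probes were, and 0 were lower, where 0.623% were. The clones did not overlap, with shpkp3-2 higher, for 4 of the 10 probes (27.2% of all probes), and with shpkp3-2 lower for 3 (18.0% of all probes). As this contrast was used to choose the family, these counts are given for completeness and nothing is read from them. CA9 was not called by limma without vec 2, with no filter on detection or with the weaker detection flag.

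Other carbonic anhydrases on the array, which are no members, were CA5A, CA5B, CA6, CA7 and CA10. CA5B, a mitochondrial form, was detected by 2 probes that disagreed, with log2 differences of -0.25 (SE 0.20, adjusted p = 0.638 by limma) and 0.67 (SE 0.20, adjusted p = 0.286 by limma). Probes of CA5A, also mitochondrial, of secreted CA6, of cytosolic CA7 and of CA10, which lacks the activity, were detected on 0 of 4 arrays.

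As CA9 is a target of HIF1, a list of 35 other genes known to be induced by low oxygen was set beside it, chosen by common knowledge of the pathway and with earlier results of these arrays known. Each gene was read from its brightest detected probe, which 32 of the 35 had. By limma, 0 genes rose and 0 fell at an adjusted p under 0.05. At an unadjusted p under 0.05, 2 of the 32 were higher and 1 lower, where 7.35% and 4.98% of all 30512 probes were, so that these counts are close to the background. The median log2 difference over the list was 0.04, beside 0.05 over all probes. VEGFA, the growth factor of blood vessels, gave 0.17 (SE 0.17), and its other 3 probes gave 0.22, -0.13 and -0.13. SLC2A1, the glucose transporter, gave 0.40 (SE 0.23). NDRG1, a stress responsive gene, gave 0.13 (SE 0.50), and its second probe went the other way at -0.69 (SE 0.48). The 32 genes lay between -1.0 and 0.97, beside the CA9 difference of 3.53, for which the family was chosen.

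The 4 largest differences of the list had both signs. EGLN1, the oxygen sensing prolyl hydroxylase that marks HIF1A for degradation, had signals of 2456.9 and 1968.6 in vec against 3624.5 and 3801.4 in shpkp3-2, a log2 difference of 0.97 (SE 0.17, adjusted p = 0.129 by limma), and its other 2 probes gave 0.95 and 0.89. PGK1, an enzyme of glycolysis, had signals of 67224.8 and 57058.6 in vec against 23160.8 and 31065.0 in shpkp3-2, a difference of -1.0 (SE 0.22, adjusted p = 0.185 by limma), and the 2 other detected probes gave -0.99 and -1.02. The clones did not overlap for either gene. With the RNA collection as a replicate block, PGK1 was past the threshold (adjusted p = 0.0424 by limma), and over the alternatives its adjusted p ran from 0.0424 to 0.708 and that of EGLN1 from 0.0343 to 0.480. ADM, a secreted peptide that widens vessels, gave 0.66 (SE 0.29), with 0.12 in the first RNA collection and 1.19 in the second. KDM3A, a histone demethylase, gave -0.59 (SE 0.42), with clones that overlapped.

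HIF1A itself, the oxygen regulated subunit, had signals of 1849.5 and 1313.5 in vec against 1466.9 and 1329.0 in shpkp3-2, a log2 difference of 0.05 (SE 0.18). HIF1A is mainly controlled as a protein, which these arrays do not measure. Of the 9 subunits and regulators of HIF in the list, limma called 0 higher and 0 lower, with 0 higher and 1 lower at an unadjusted p under 0.05, beside the same shares of all probes (7.35% and 4.98%). ARNT2, a partner subunit, had normalized log2 intensities of 0.29 and 0.27 in vec against -0.39 and -0.58 in shpkp3-2, a difference of -0.77 (SE 0.18, adjusted p = 0.209 by limma), and its other 2 probes gave -0.73 and -0.76. The next in size were HIF1AN, an asparagine hydroxylase that restrains HIF, at -0.28, VHL, which targets HIF for degradation, at 0.28, and ARNT, the main partner subunit, at -0.25. The VHL value is from a probe of another transcript record, the probe of its RefSeq transcript gave -0.26, and a second ARNT probe gave 0.17.

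A difference did appear between the 2 arrays of the knockdown clone, in a comparison chosen after the values were seen. All 32 hypoxia genes were higher on shpkp3-2 2 than on shpkp3-2 1, with a median log2 difference of 0.59, while 48.1% of all 30512 probes were and their median was -0.01. CA9 followed with 0.89. ANKRD37, an ankyrin repeat gene, stood 2.01 higher on shpkp3-2 2, NDRG1 1.51, DDIT4, an inhibitor of mTOR signalling, 1.5, and ANGPTL4, a secreted regulator of lipid use, 1.36. With normexp, quantile normalization or a floor the count was also 32 of 32, with medians of 0.54 to 0.63, and with median centring it was 30 of 32. Of the 10 member probes, 4 were higher on shpkp3-2 2, and of the 23 acid-base transport genes read below 13 were. The 2 arrays hold RNA of separate collections, each with 1 array, so that collection, culture and array cannot be told apart, and no test was made.

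In vec the order was less uniform. CA9 was 0.48 higher on vec 1 than on vec 2. Of the 32 hypoxia genes, 19 were higher on vec 1 (59.4%, median 0.09), beside 44.8% of all probes (median -0.05). This share changed with the scaling, and that of all probes did too. With quantile normalization it was 81.2% (26 of 32, median 0.17), beside 49.6% of all probes (median 0.0). With normexp it was 56.2% (18 of 32, median 0.13), beside 33.5% of all probes (median -0.13). A probe that was higher on both vec 1 and shpkp3-2 2 than on the other array of its clone, as CA9 was, made up 26.6% of all probes and 59.4% of the hypoxia genes, and 28.6% and 81.2% with quantile normalization. As all 32 hypoxia genes were higher on shpkp3-2 2, their shares only repeat those of vec 1. The like shares of all probes are therefore 44.8%, and 49.6% with quantile normalization. Under normexp CA9 was -0.02 between the vec arrays and had no such order. KDM3A, whose clones overlapped, had 1330.0 on vec 1, 523.3 on vec 2, 350.4 on shpkp3-2 1 and 653.4 on shpkp3-2 2. The shpkp3-2 arrays stood further apart than the clone means did for 25 of the 32 hypoxia genes, beside 42.5% of all probes. The median absolute log2 difference was 0.59 between these arrays and 0.20 between the clones for the hypoxia genes, and 0.17 and 0.22 over all probes. CA9 was higher on the lower shpkp3-2 array than on the higher vec array by 2.85 on the log2 scale. As the family was chosen for this rise, the gap is a description and nothing is read from it beside these genes.

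Carbonic anhydrases act together with transporters of bicarbonate, protons and lactate, and a list of 34 such genes was read in the same way. A probe could be fitted for 23, and by limma 0 were called higher and 0 lower, with 2 higher and 1 lower at an unadjusted p under 0.05 (7.35% and 4.98% of all probes). The median log2 difference was 0.07. SLC4A2, an exchanger of chloride and bicarbonate, had signals of 533.4 and 294.8 in vec against 229.9 and 220.0 in shpkp3-2, a difference of -0.61 (SE 0.22, adjusted p = 0.359 by limma). AQP1, a water channel, gave 0.52 (SE 0.21), and ATP6V1A, a subunit of the proton pump of vacuoles, -0.39 (SE 0.17). The 2 probes of ATP1B1, a subunit of the sodium pump, disagreed, with 0.43 (SE 0.25) from the brighter and -0.40 (SE 0.18) from the other, and the clones did not overlap for either. SLC16A3, the lactate exporter of glycolytic cells, gave -0.19 (SE 0.20). SLC4A4, a sodium and bicarbonate cotransporter, was detected on both arrays of neither clone by any of its 3 probes. ATP6V0A4, a proton pump subunit named after its values were seen, gave 1.15 (SE 0.37, adjusted p = 0.316 by limma) and was past the threshold with the replicate block (adjusted p = 0.0255 by limma). It was detected on 1 of 2 vec arrays and so passed the filter on low values through shpkp3-2, where it was higher. ATP6V0A4 is also 1 of the 2 genes counted above as higher at an unadjusted p under 0.05 by limma. Nothing is read from its call or from its part in that count.

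The genes beside CA9 on chromosome 9 were read as well, 3 on each side. In RefSeq order, CCDC107 and ARHGEF39 precede CA9 and TPM2, a tropomyosin, TLN1, the adhesion protein talin, and CREB3, a transcription factor, follow it. ARHGEF39, next to CA9, gave -0.21 (SE 0.19), and TPM2, next to it on the other side, 0.15 (SE 0.17). TLN1 gave -0.36 (SE 0.29) and CREB3 0.34 (SE 0.21). CCDC107 gave 0.87 (SE 0.48) and moved with 1 array, at a signal of 616.1 on vec 1 against 1382.7 to 1477.8 on the others. None was past the threshold by limma (lowest adjusted p = 0.526), and SIT1, the sixth gene, was detected on 0 of 4 arrays.

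Genes whose 4 values were most like those of CA9 were taken by the Euclidean distance between normalized log2 intensities, each probe centred on its own mean, over 21598 probes with a gene symbol that were detected on all 4 arrays. GRHL3, a transcription factor of epithelial barriers, was nearest at a distance of 0.59, with signals of 299.7 and 169.7 in vec against 2026.8 and 2099.3 in shpkp3-2. TUBAL3, an alpha tubulin like gene, MEI1, a meiosis gene, and GALNT5, which starts O-linked glycans, followed at 1.10, 1.35 and 1.43. Their log2 differences were 3.40 for GRHL3, 2.71 for TUBAL3, 2.35 for MEI1 and 2.30 for GALNT5. Between the shpkp3-2 arrays, where CA9 differed by 0.89, GRHL3 differed by 0.07, TUBAL3 by -0.15, MEI1 by 0.05 and GALNT5 by -0.13. As these genes were picked by the same contrast over 4 arrays, they are a description.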

How the data were processed

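The authors hybridized Cy3 labeled RNA to 4 arrays and deposited the output of Agilent Feature Extraction (10.7.3.1 in the file headers, 9.1 in the submitters' processing notes). The deposited intensity of a spot is the processed signal, on a linear scale, background subtracted and detrended and not scaled between arrays. The deposited mean and local background intensities precede correction, and the deposited 0 or 1 flags are another kind of value. The design was built on hg18 and its probe names are not those of the catalogue array that the methods name, and no array coordinates are given.

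On each array, the 75th percentile of log2 signals over all spots but controls was subtracted from the log2 signal, spots flagged as outliers (26 to 39 an array) were left out, and repeated spots were averaged, which left 50117 probes with values throughout. The 30512 probes flagged as well above background on both arrays of 1 clone or of both clones were fitted without covariates (lmFit, eBayes) in limma 3.58.1 under R 4.3.3, and calls were made at a Benjamini-Hochberg adjusted p under 0.05. Data were simulated with the spread that limma fitted, with independent values and no effect of RNA collection or array. There, 149 of 200 probes changed by 2 on the log2 scale among 30512 were recovered, with 5 false calls. Such data do not give the error rate on the real arrays. Replicate arrays are separate RNA collections of 1 clone, so that p-values measure only the spread between them. The series' design text pairs same-numbered arrays by RNA collection, and their deviations from the clone means had a correlation of -0.195 over the probes fitted. The pairing was kept as an alternative, as the methods do not use it.

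Symbols were updated to RefSeq through the accession for 28590 probes, the current symbol for 3001 and an earlier symbol for 1176, while 17471 keep the files' name. The brightest fitted probe stands for a gene. The members and lists were chosen with earlier results of these data known. Named were every member probe, PKP3, list genes past the threshold or, among probes detected on all 4 arrays, with the 4 largest differences in a list, list genes taken whatever their values (VEGFA, SLC2A1, NDRG1, HIF1A, SLC4A4 and SLC16A3), the other carbonic anhydrases, 3 neighbours on each side of CA9, and the 5 genes nearest to its profile. Of the genes under this rule, 2 are not reported here. ANKRD37, DDIT4, ANGPTL4 and ATP6V0A4 were named outside this rule, once their values had been seen. Alternatives were normexp (offset 50), quantile normalization, median centring, no detection filter, detection on all 4 arrays, the weaker positive and significant flag, a floor of 5, a trended and robust prior, the replicate block and each array left out. Figures were drawn with matplotlib 3.10.9.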

Additional observations from a re-analysis of the deposited data

How the results depend on the processing

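The CA9 difference kept its sign in 12 of 12 alternatives, at 2.27 with normexp and between 3.09 and 3.97 with an array left out. CA2, CA8, CA12, CA13 and CA14 also kept their sign in 12 of 12, and CA1, CA3 and CA4 in 11 and CA11 in 10. The PKP3 difference was -2.54 but no longer past the threshold with no filter on detection and with the weaker flag. Members called higher by limma numbered 0 under those 2 settings, and 0 to 1 with an array left out (0 without vec 2). By the 2-fold rule, members lower numbered 0 to 1 with an array left out (1, CA8, without vec 2 and without shpkp3-2 2). Hypoxia genes called higher numbered 1 (EGLN1) with normexp and with the trended prior, and lower 1 (PGK1) with normexp and with the replicate block. Transport genes called higher numbered 1 (ATP6V0A4) with the replicate block, and 0 to 1 with an array left out (1 without vec 1).

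Of all probes, 75 were called higher and 44 lower. The replicate block gave 503 and 338, no filter 10 and 8, the weaker flag 1 and 1, and detection on all 4 arrays 25 and 21. Quantile normalization gave 42 higher and the trended prior 114 higher. With an array left out the counts ran from 108 to 243 higher and from 55 to 154 lower, with the lone array assumed to vary like the other clone. The crossed pairing, chosen after seeing the data, gave 64 and 40. The block changed no call of a member. The cause of these changes was not tested. Levels of CA3, CA4 and CA1 are limited by signals at or near background.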
